A study of Oryza sativa Japonica Group with 4 samples.

Results

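The genes described here encode the proteins that loosen and build the plant cell wall: expansins, xyloglucan endotransglucosylase/hydrolases (XTH), cellulose synthases (CESA) and cellulose synthase-like proteins (CSL). A rice gene was included when its symbol or a synonym, without a leading Os, was *EXPA*, *EXPB*, *EXLA*, *EXLB*, *XTH*, *CESA* or *CSL* plus a subgroup letter, followed by digits. The gene table held 85 such genes, and 59 of them were linked to a probe set of the array, out of 17905 genes with a probe set. The 59 measured genes were 29 of 49 expansins, the only gene named *XTH* (*XTH8*), all 9 *CESA* genes and 20 of 26 *CSL* genes. The 26 genes without a linked probe set included 15 of 29 *EXPA* genes, *EXPA17* among them, 4 of 15 *EXPB* genes, *EXPB5* among them, and *EXLB1*.

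RNA came from roots of seedlings of the japonica rice cultivar TNG67, which carried no label of a mutation or transgene. All seedlings grew in hydroponic culture lacking N up to an age of 17 days. For the last 30 min, one group stayed without N (−N) and the other received 1.43 mM ammonium nitrate (+N). Both groups had 2 biological replicates, each on 1 Affymetrix Rice Genome Array. The labels call the replicates biological without saying whether they came from separate cultures. The p-values cover the spread between these samples, whatever its source. Intensity is the brightness of a probe set, the set of short oligonucleotides that reads a gene. The median rice probe set had an intensity of 17.8 and 25.2 on the −N arrays of replicates 1 and 2, and of 17.1 and 25.4 in +N, so the replicate 2 arrays were the brighter ones in both groups. Where a group's values are given, replicate 1 stands first and replicate 2 after it. Levels of different genes were not compared, because probe sets differ in brightness for the same amount of RNA. Because whole roots were extracted, fewer cells of a type and less RNA per cell cannot be told apart.

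A growing plant cell is held by cellulose microfibrils embedded in hemicelluloses, and it enlarges when acid-activated expansins let these polymers slip past each other without cutting them. XTH enzymes cut xyloglucan, a hemicellulose, and rejoin the cut end to another chain. CESA proteins form the complex in the plasma membrane that spins cellulose, with separate sets of CESA proteins for the thin wall of growing cells and the thick secondary wall of xylem and fibers, and CSL proteins make backbones of hemicelluloses. In roots these genes act in the elongation zone, in root hairs and in the vascular tissue.

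None of the 59 genes was called after 30 min of ammonium nitrate. The rule for a call was a 2-fold or larger change together with an unadjusted p under 0.05 in limma. By that rule 0 of 59 members were higher and 0 lower, against 0.465% of the 57194 rice probe sets called higher and 0.0140% called lower. Over all genes, each read by its brightest probe set as the members were, 1.01% were called higher and 0.0223% lower. At an unadjusted p under 0.05 alone, 1 member passed (1.69%), against 2.20% of all genes and 1.21% of all probe sets, and after Benjamini-Hochberg adjustment in limma 0 passed among members and among all probe sets. The log2 fold changes of the members, +N over −N, lay between -0.73 and 1.00 with a median of -0.12, beside a median of 0.02 over all genes. Of the 59 values, 40 were below 0 and 19 above it, and 51 were smaller than 0.5 in size. Both +N arrays were above both −N arrays for 3 members (5.08%), against 9.23% of all genes, and below them for another 3 (5.08%), against 5.12% of all genes.

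**Figure D1:**
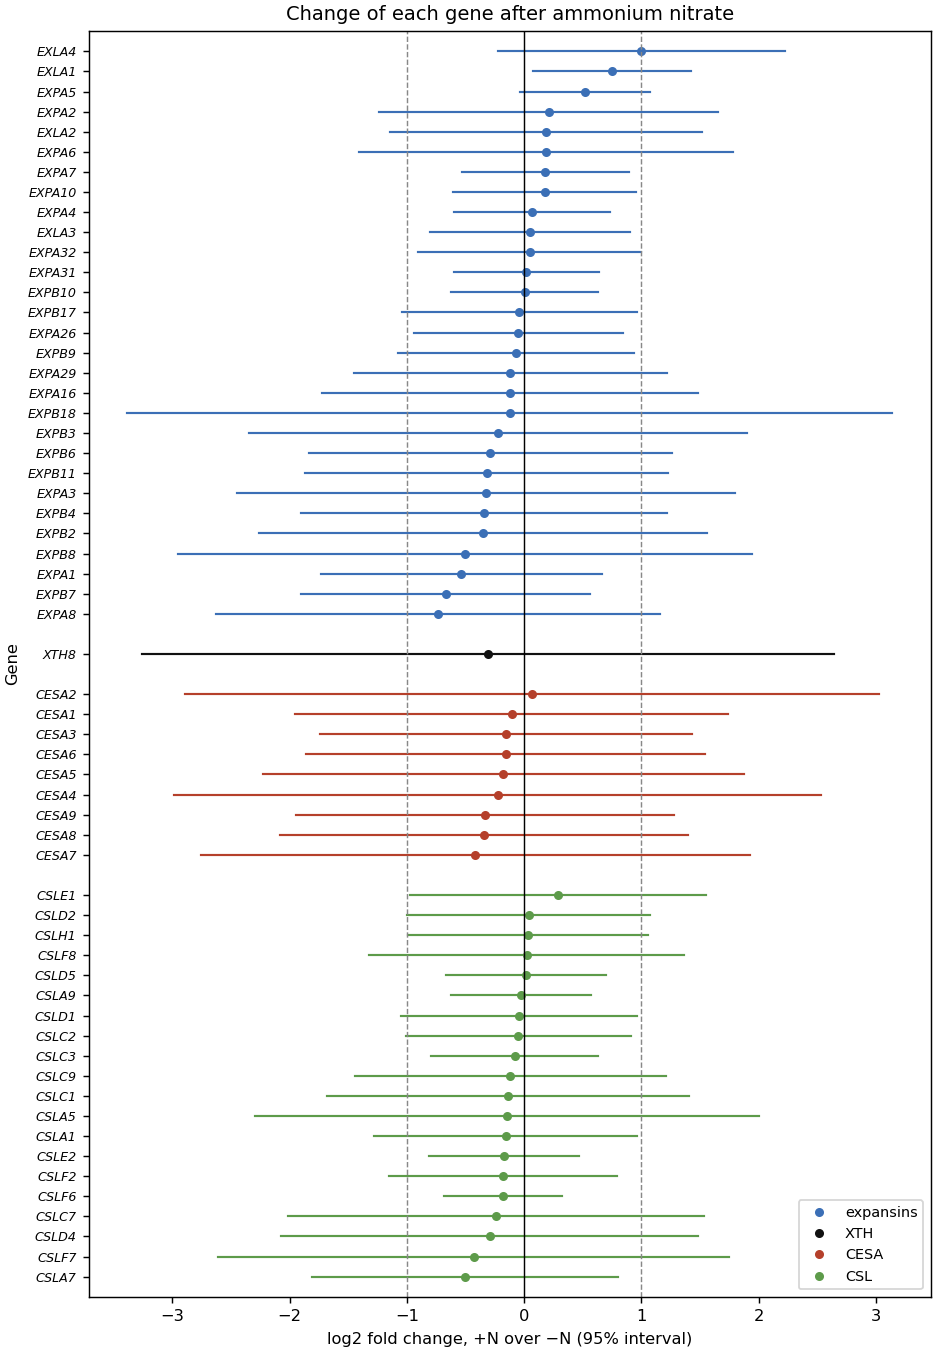
Log2 fold change of each of the 59 genes, +N over −N, on the horizontal axis, with its 95% interval from limma as a line. Dashed lines mark a 2-fold change. Only the interval of *EXLA1* excludes 0, and the intervals of 13 genes lie between the dashed lines.

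For most of these genes the data leave room for a 2-fold change. The 95% interval of the log2 fold change lay within a 2-fold change in either direction for 13 of 59 members (22.0%), against 39.9% of all genes. Of these 13, 8 were expansins (*EXLA3*, *EXPA4*, *EXPA7*, *EXPA10*, *EXPA26*, *EXPA31*, *EXPA32* and *EXPB10*) and 5 were *CSL* genes (*CSLA9*, *CSLC3*, *CSLD5*, *CSLE2* and *CSLF6*). *EXPA4*, *EXPA31* and *CSLD5* had intensities under the floor of 5.16 on at least 1 array, close to the lower end of the scale. None of the 9 *CESA* genes had an interval that narrow. The median standard error of the log2 fold change was 0.44 over the members and 0.31 over all genes. With 2 arrays in each group, the smallest two-sided p of an exact permutation test is 0.333.

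The expansin-like A genes, whose proteins share the fold of expansins but have no established loosening activity, had log2 fold changes above 0 in 4 of 4 genes, with a median of 0.47. *EXLA1* (LOC4331516) was the member with an unadjusted p under 0.05. Its intensities were 695 and 857 in −N and 1149 and 1458 in +N. The +N arrays were both above the −N arrays, and on the log2 scale the gap between the groups was wider than that between the replicates of either group. Its log2 fold change came to 0.75 (SE, standard error, 0.22, 95% interval 0.07 to 1.42, unadjusted p = 0.0378 in limma), a 1.68-fold difference that stayed under the 2-fold threshold. Without 1 of the 4 arrays in turn, the p of *EXLA1* in limma lay between 0.0680 and 0.161, and 0.0823 after removal of dim probe sets.

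*EXLA4* (LOC4342109), named here after its values were seen, had the highest log2 fold change of all members. Its intensities were 13.4 and 15.7 in −N and 20.7 and 40.6 in +N, and its mean log2 value over the 4 arrays was under the median of the rice probe sets. The groups did not overlap, but the +N replicates lay 1.96-fold apart. The log2 fold change came to 1.00 (SE 0.41, unadjusted p = 0.0833 in limma). *EXLA4* was called with arrays centred on their median (log2 fold change 1.02, unadjusted p = 0.00670 in limma), after quantile normalization (1.02, unadjusted p = 0.0119) and once the +N array of replicate 1 was left out (1.48, unadjusted p = 0.0208). It was not called with the offset of 16 in place of the floor (0.58, unadjusted p = 0.0965 in limma) or once the +N array of replicate 2 was left out (0.51, unadjusted p = 0.170), nor with either −N array left out (0.88 and 1.12). The others of the family showed overlapping groups, with log2 fold changes of 0.19 for *EXLA2* and 0.05 for *EXLA3*. The probe set of *EXLA2* is of a type that can also read other genes, and its second probe set gave -0.14. That all *EXLA* genes lay above 0 thus holds for their brightest probe sets only.

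**Figure D2:**
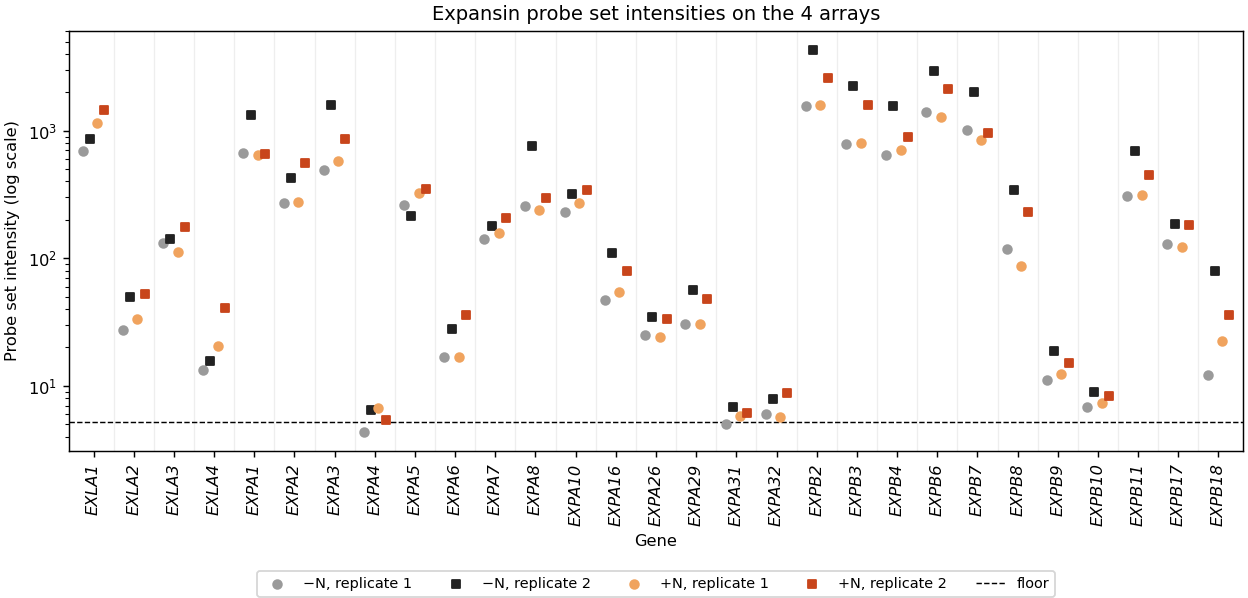
Intensity of the probe set of each of the 29 measured expansin genes on the 4 arrays, on a log scale, with 1 point per array and a dashed line at the floor of 5.16. The +N points of *EXLA1*, *EXLA4* and *EXPA5* lie above both −N points, and the −N array of replicate 2 is the highest of the 4 for all 11 *EXPB* genes.

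The alpha-expansins, which act in acid-induced wall extension, were spread around 0. Of 14 measured *EXPA* genes, 8 had log2 fold changes above 0 and 6 below, with a median of 0.03. *EXPA5* (LOC4330706) had intensities of 262 and 213 in −N and 327 and 352 in +N. Both +N arrays were above both −N arrays, and the log2 fold change was 0.52 (SE 0.19, unadjusted p = 0.0586 in limma). *EXPA1* (LOC4335222) had intensities of 673 and 1321 in −N and 643 and 658 in +N. The groups did not overlap, but the first −N array was close to the +N arrays and the second stood apart. The log2 fold change of *EXPA1* was -0.54 (SE 0.40, unadjusted p = 0.263 in limma).

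*EXPA8* (LOC4327217), an alpha-expansin known in rice for its part in root growth, had the lowest log2 fold change of all members. Its intensities were 258 and 765 in −N and 239 and 298 in +N. A single array, −N of replicate 2, was high, and the groups overlapped. The log2 fold change came to -0.73 (SE 0.63, unadjusted p = 0.321 in limma). *EXPA10* (LOC4336776), an alpha-expansin linked in rice to root cell elongation and the response to aluminum, had 229.9 and 316 in −N and 270.0 and 342 in +N. The values of the 2 groups alternated in order, with a log2 fold change of 0.17 (SE 0.26, 95% interval -0.61 to 0.96).

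The other 10 *EXPA* genes had overlapping groups. Among them *EXPA3* had intensities of 489 and 1593 in −N and 576 and 863 in +N, again with the highest value on the −N array of replicate 2. *EXPA2* had 272 and 427 in −N and 278 and 557 in +N, so the replicate 2 arrays were the higher ones in both groups. *EXPA7* had 143 and 179 in −N and 159 and 206 in +N. Its +N arrays overlapped its −N arrays, with a log2 fold change of 0.18, and its dimmer probe sets gave 0.18 and 0.06. *EXPA4*, *EXPA31* and *EXPA32* stayed between 4.37 and 8.81 on every array, at or near the floor. *EXPA6*, *EXPA16*, *EXPA26* and *EXPA29* had log2 fold changes between -0.12 and 0.19, and in each of them the replicate 2 array was the higher one of both groups. *EXPA16*, for example, had 46.9 and 109 in −N and 54.0 and 80.1 in +N.

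The beta-expansins, a family that is large in grasses and includes pollen allergens as well as members active in vegetative tissue, had log2 fold changes below 0 in 10 of 11 genes, with a median of -0.29. The replicate 1 arrays did not share this direction. There 7 of 11 genes (63.6%) were higher in +N than in −N, near the 59.8% of all genes. Between the replicate 2 arrays 11 of 11 were lower, against 52.6% of all genes. *EXPB7* (LOC4331300) had intensities of 1014 and 2018 in −N and 850.5 and 951 in +N. Both −N arrays were above both +N arrays, yet the −N replicates were 1.99-fold apart. The log2 fold change came to -0.67 (SE 0.41, 95% interval -1.90 to 0.57, unadjusted p = 0.193 in limma). *EXPB8*, the gene next to *EXPB7* in the gene table, had intensities of 119 and 344 in −N and 87.1 and 232 in +N. Its groups overlapped, and each group spread by more than 2-fold between its replicates.

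The genes *EXPB6*, *EXPB2*, *EXPB3* and *EXPB4* lie in a row of 4 in the gene table, and all were measured. *EXPB2* (LOC4349348) had intensities of 1558 and 4270.1 in −N and 1586 and 2572 in +N. *EXPB3* had 785 and 2231 in −N and 805 and 1595 in +N. All of the row shared this order, with the −N array of replicate 2 the highest, the +N array of replicate 2 next and both replicate 1 arrays lowest. The probe set of *EXPB4* is of a type that can also read other genes. *EXPB6* had 1402 and 2914 in −N and 1277 and 2139 in +N, and *EXPB4* had 648 and 1551 in −N and 703 and 887 in +N. The log2 fold changes of the row lay between -0.35 and -0.22, with standard errors between 0.52 and 0.71. *EXPB18* had the widest spread of all members, with intensities of 12.1 and 79.4 in −N and 22.4 and 36.1 in +N. Its −N replicates were 6.57-fold apart, around both +N values, and the standard error of its log2 fold change of -0.12 was 1.09. *EXPB11*, with 309 and 699 in −N and 311 and 446 in +N, again had both replicate 1 arrays close together and the −N array of replicate 2 above the rest. *EXPB17* had 129 and 185 in −N and 123 and 184 in +N, so its groups were nearly alike on this probe set, with a log2 fold change of -0.04 (SE 0.33). Its dimmer probe set had 13.9 and 17.3 in −N and 8.73 and 14.5 in +N, with overlap and a log2 fold change of -0.46 (SE 0.34). *EXPB9* and *EXPB10* were dim, at 6.88 to 18.7 on the 4 arrays. Over all 29 measured expansins the median log2 fold change was -0.05, with 13 above 0 and 16 below.

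*XTH8* (LOC4345019), which encodes an XTH known in rice to respond to gibberellin, was the only gene of its kind that the names found. Its intensities were 553 and 2680.1 in −N and 672 and 1439 in +N. Both +N values lay between the −N values, which were 4.85-fold apart, and the +N replicates were 2.14-fold apart. The log2 fold change came to -0.31 (SE 0.98, 95% interval -3.26 to 2.64, unadjusted p = 0.773 in limma). Omitting the −N array of replicate 1 gave -1.45 and omitting that of replicate 2 gave 0.83. Without the +N array of replicate 1 the value was 0.24, and without that of replicate 2 it was -0.86. Its sign thus depended on which array was left out.

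In all 9 *CESA* genes the replicate 2 array was above the replicate 1 array in both groups, and the groups overlapped. Of 9 genes, 8 had log2 fold changes below 0, between -0.42 and -0.11, and *CESA2* had 0.07, with a median of -0.18 and standard errors between 0.53 and 0.99. Between the replicate 1 arrays 6 of 9 genes (66.7%) were higher in +N, against 59.8% of all genes. Between the replicate 2 arrays 9 of 9 were lower, against 52.6% of all genes. *CESA1*, *CESA3* and *CESA8* encode the subunits of primary walls. *CESA1* had intensities of 991 and 2426 in −N and 1066 and 1941 in +N, and *CESA3* had 1726 and 3627 in −N and 1718 and 2940.5 in +N. *CESA8* had 827 and 2053 in −N and 821 and 1283 in +N. In all of these the replicate 1 arrays of both groups were close to each other and the −N array of replicate 2 was highest. The log2 fold changes were -0.11, -0.16 and -0.34 for *CESA1*, *CESA3* and *CESA8* (unadjusted p between 0.591 and 0.870 in limma).

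*CESA2*, *CESA5* and *CESA6* likewise had the −N array of replicate 2 highest and both replicate 1 arrays lowest. *CESA5* had 324 and 833 in −N and 316 and 667 in +N, and *CESA6* had 932 and 2176 in −N and 988 and 1649.7 in +N. *CESA2* had 13.7 and 53.1 in −N and 16.1 and 49.6 in +N, a 3.87-fold and a 3.07-fold distance between replicates.

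*CESA4*, *CESA7* and *CESA9* encode the subunits of secondary walls, and their loss makes rice culms brittle. *CESA4* had intensities of 95.8 and 469 in −N and 148 and 221 in +N. *CESA7* had 116 and 439.5 in −N and 140.2 and 204 in +N. *CESA9* had 55.2 and 140.3 in −N and 68.3 and 71.2 in +N. In each of them the −N arrays enclosed both +N arrays. The −N replicates were 4.89-fold, 3.78-fold and 2.54-fold apart for *CESA4*, *CESA7* and *CESA9*, and the +N replicates 1.49-fold, 1.46-fold and 1.04-fold. The log2 fold changes were -0.23, -0.42 and -0.34 (unadjusted p between 0.572 and 0.819 in limma). The dimmer probe sets of *CESA4* and *CESA3* gave -0.21 and -0.43, and those of *CESA1* and *CESA2* differed in sign from their brighter ones, with 0.10 and -0.24.

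**Figure D3:**
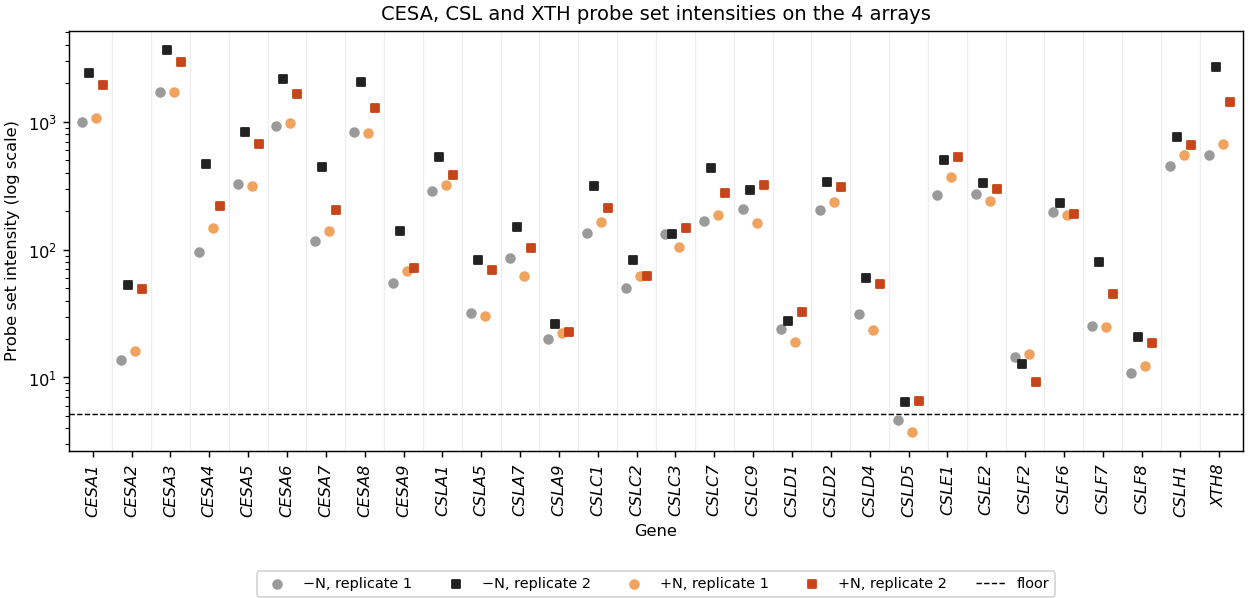
Intensity of the probe set of each of the 9 *CESA*, 20 *CSL* and 1 *XTH* genes on the 4 arrays, on a log scale, with 1 point per array and a dashed line at the floor of 5.16. For all 9 *CESA* genes and *XTH8* the black square, the −N array of replicate 2, is the highest point.

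The *CSL* genes had 15 of 20 log2 fold changes below 0, with a median of -0.13 and a range from -0.51 to 0.29. Genes of mixed-linkage glucan, a hemicellulose of grass walls, were *CSLF6*, *CSLF8* and *CSLH1*. *CSLF6* (LOC4344719), which encodes the main synthase of this glucan, had intensities of 196 and 233 in −N and 187 and 190.1 in +N. It was the only *CSL* gene whose groups did not overlap (5% of the 20, near the 5.12% of all genes that were lower without overlap). Its log2 fold change was -0.18 (SE 0.17, 95% interval -0.69 to 0.32, unadjusted p = 0.350 in limma). The dimmer probe sets of *CSLF6* had overlapping groups. They gave a log2 fold change of -0.21 and, at or near the floor, no difference. *CSLF8* had 10.8 and 20.7 in −N and 12.4 and 18.6 in +N, and *CSLH1* (LOC4348359) had 452 and 766 in −N and 547 and 664 in +N. In both of these genes the −N arrays enclosed the +N arrays, with log2 fold changes of 0.02 and 0.03. *CSLF7* had 25.5 and 79.8 in −N and 25.0 and 44.7 in +N, with 1 high −N array and a log2 fold change of -0.43 (SE 0.73). *CSLF2*, next to *CSLF8* in the gene table, had 14.4 and 12.7 in −N and 15.4 and 9.23 in +N, with the +N values around the −N values.

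The *CSLA* genes, whose proteins make mannan backbones, had log2 fold changes of -0.16 (*CSLA1*), -0.15 (*CSLA5*), -0.51 (*CSLA7*) and -0.03 (*CSLA9*). *CSLA7* had the lowest value of all *CSL* genes, with intensities of 85.9 and 150.2 in −N and 62.6 and 102 in +N (SE 0.44, unadjusted p = 0.321 in limma). Its +N array of replicate 2 lay between the −N arrays. *CSLA5* had 31.7 and 82.6 in −N and 30.5 and 70.0 in +N, and *CSLA9* had 20.1 and 26.0 in −N and 22.1 and 22.7 in +N. Groups overlapped in both. *CSLA1* had 289.6 and 526 in −N and 319 and 383 in +N, and its locus also carries the name *CSLA9* in the gene table, besides the locus called *CSLA9* here.

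The *CSLC* genes, whose proteins make the glucan backbone of xyloglucan, had log2 fold changes below 0 in 5 of 5 genes, from -0.24 (*CSLC7*) to -0.05 (*CSLC2*). *CSLC1* had intensities of 134 and 316 in −N and 165 and 212 in +N, and *CSLC7* had 167 and 436 in −N and 188 and 276 in +N. *CSLC2* had 49.8 and 83.6 in −N and 62.6 and 62.0 in +N. In these genes the −N arrays again enclosed the +N arrays. *CSLC3*, with 132 on both −N arrays and 105 and 148 in +N, and *CSLC9*, with 207 and 293 in −N and 162 and 318 in +N, showed the reverse, with the −N values inside the +N values.

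*CSLD1* (LOC4349505), which rice needs for root hair growth, had intensities of 24.0 and 27.6 in −N and 19.1 and 32.5 in +N. Its −N values lay between its +N values, with a log2 fold change of -0.05 (SE 0.34). The other 3 *CSLD* genes had log2 fold changes between -0.29 (*CSLD4*) and 0.04 (*CSLD2*), all with overlapping groups. *CSLD2* had 205 and 337 in −N and 235 and 309.7 in +N, and *CSLD4* had 31.6 and 60.3 in −N and 23.7 and 53.5 in +N. *CSLD4*, whose loss gives narrow leaves and short plants in rice, was read by a probe set that can match other genes. *CSLE1* had the highest value of the *CSL* genes, 0.29 (SE 0.42), with 269 and 498 in −N and 373 and 533 in +N. Its groups overlapped, and the neighboring *CSLE6* had no linked probe set. *CSLE2* had 274 and 331 in −N and 239 and 299 in +N, also with overlap and a log2 fold change of -0.17. Its dimmer probe sets gave -0.08 and 0.10.

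Other genes of wall synthesis and remodeling, listed by gene name, held no call either. Of 54 such genes, 46 were measured, among them endoglucanases (*GLU*), which cut glucan chains, sucrose synthases (*SUS*) and UDP-glucose dehydrogenases (*UGD*), which supply sugar nucleotides, xylan synthesis genes (*IRX*), laccases (*LAC*) and COBRA-like genes (*BC1*). The name *BC1* also drew in LOC4347540, which is a transcription factor gene by its other name. None of the 46 was called in limma, against 1.01% of all genes called higher and 0.0223% called lower. At those shares a set of 46 genes would hold few calls or none. Of the log2 fold changes, 23 were above 0 and 23 below, with a median of -0.00, and the lowest unadjusted p in limma was 0.0819. Groups did not overlap for *GLU14* and *GLU15*, which were higher in +N (4.35% of the 46, against 9.23% of all genes). *IRX9* was the only one lower without overlap (2.17%, against 5.12% of all genes). *GLU15* was dim, at 6.80 to 9.07 on the 4 arrays. *GLU14*, *GLU15* and *IRX9* were named after their values were seen. *IRX9*, which takes part in making the xylan backbone, had intensities of 107 and 138 in −N and 71.6 and 93.4 in +N (log2 fold change -0.57, SE 0.25, unadjusted p = 0.0962 in limma).

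The same array was often the highest for these genes. The −N array of replicate 2 was the highest of the 4 for 42 of 59 members (71.2%), against 49.2% of all genes. It was the highest for 9 of 9 *CESA* genes, 11 of 11 *EXPB* genes and *XTH8*, for 7 of 14 *EXPA* genes and 14 of 20 *CSL* genes, and for 0 of 4 *EXLA* genes. In the *EXLA* genes the +N array of replicate 2 was the highest in 4 of 4. The −N array of replicate 1 was the highest for 0 of 59 members, against 4.93% of all genes.

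**Figure D4:**
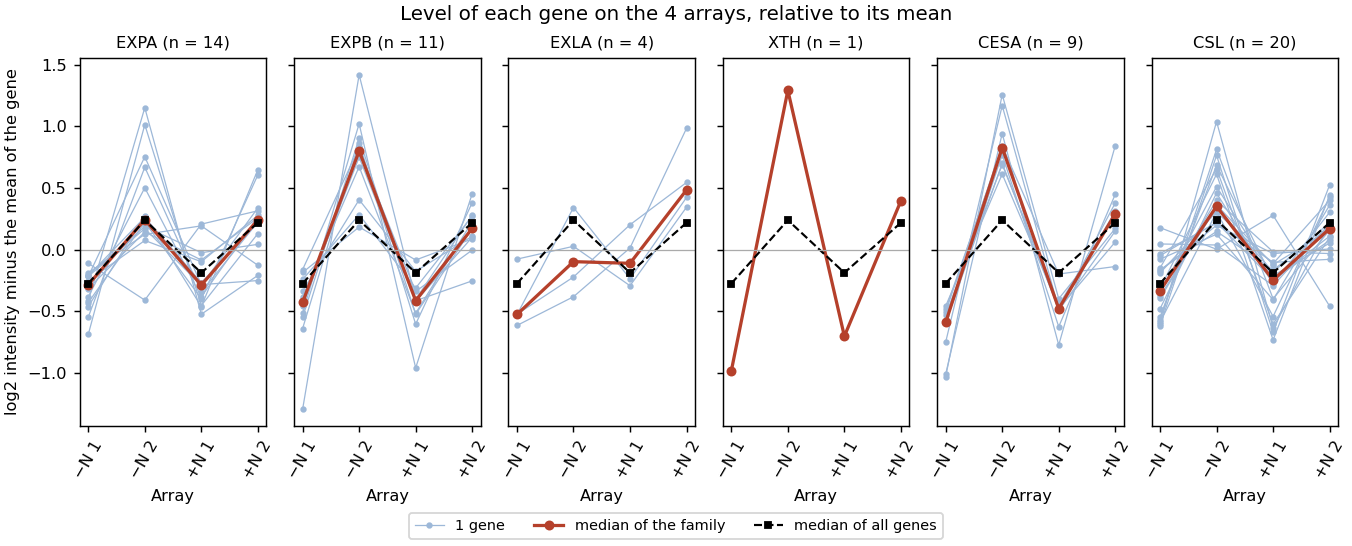
Log2 intensity of each gene on each array minus the mean of that gene over the 4 arrays, by family, with 1 thin line per gene, the family median in red and the median of all 17905 genes dashed in black. The medians of *CESA* (0.83) and *EXPB* (0.80) on the −N array of replicate 2 lie above that of all genes (0.24), and the *EXLA* median there is -0.10.

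Within the −N group, the replicate 2 array was at least 2-fold above the replicate 1 array for 24 of 59 members (40.7%), against 16.6% of all genes. These 24 included 9 of 9 *CESA* and 7 of 11 *EXPB* genes. Within the +N group the same was found for 8 of 59 members (13.6%), against 5.77% of all genes. The median log2 ratio of replicate 2 to replicate 1 in −N was 1.35 for *CESA*, 1.18 for *EXPB*, 0.56 for *EXPA*, 0.27 for *EXLA* and 0.52 for all genes. In +N the median log2 ratio was 0.74 for *CESA*, 0.58 for *EXPB*, 0.43 for *EXPA*, 0.65 for *EXLA* and 0.39 for all genes. No test was made of these differences, since each rests on 1 array against another.

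Leaving out the −N array of replicate 1, so that only the high −N array remained, 5 members were called lower in limma, namely *CESA7*, *CESA9*, *EXPA1*, *EXPA8* and *EXPB7*, beside 1.35% of all genes called lower in the same fit. In that fit −N is a lone array, assumed to vary as the +N arrays do. Leaving out the −N array of replicate 2, the median log2 fold change of the *CESA* and *CSL* genes was 0.38 in place of -0.16. The median over all rice probe sets moved in the same direction, to 0.17 from -0.01. The other cell wall genes were also most often highest on the −N array of replicate 2, in 28 of 46 genes (60.9%).

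Markers of the tissue were read beside these values. Of 16 root markers, 9 were measured, and their summed intensity was 9089 and 14329 in −N and 13189.7 and 14279 in +N. *LSI1*, a silicon transporter of the root, had between 7224 and 9869 on the 4 arrays, whereas *SCR1* and *PT11* stayed between 6.69 and 16.2, and the ammonium and nitrate transporters in the sum respond to N themselves. Of 13 markers of green tissue, 3 were measured, *RBCS*, *RCA* and *CAB2R*, with sums of 8527 and 13760 in −N and 11261 and 12844 in +N. *RBCS* and *RCA*, which serve carbon fixation in leaves, had intensities of 304 and 354 on the −N array of replicate 1 and 1303 and 1241 on that of replicate 2. In +N *RBCS* had 878 and 873, and *RCA* had 1039 and 895. Their highest array was thus that of the *CESA* and *EXPB* genes. Unlike in those genes, their +N array of replicate 2 was not above that of replicate 1. *CAB2R*, a chlorophyll-binding protein gene, differed by 1.43-fold between the −N replicates, with 7869.8 and 11216. On every array *CAB2R* made up most of the green tissue sum, and *LSI1* most of the root sum. The root marker *LSI2*, another silicon transporter gene, also had its highest value on the −N array of replicate 2, with 596 and 1486 in −N and 768 and 721 in +N. So did *LSI1*, *RSS1* and *SCR1*. The root markers *CRL4* and *SHR1* were instead highest on the +N array of replicate 2, and *AMT1-2* and *NRT2.3* on that of replicate 1. None of the 4 pollen markers was measured, and the reference gene *ACT1* had 3436 and 6412 in −N and 3956 and 4327 in +N. The part of tissue makeup in the values of the wall genes was not tested. With each array centred on its median, which removes its overall brightness, the median log2 fold change was -0.03 for the expansins and -0.13 for the *CESA* and *CSL* genes.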

How the data were processed

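The authors hybridized biotin-labelled cRNA from each root sample to 1 array. Their deposited values are linear intensities of probe sets, 1 column per array. GCOS and RMA are named, with no version, in the submitters' processing notes. Which of these made the deposited values, and how they were normalized, was not given in the sources used here. Of 57381 probe sets, 187 controls were left out. A floor of 5.16, the 5th percentile over the 4 arrays, replaced lower intensities (between 3.59% and 6.92% of an array). The log2 values of 57194 probe sets were fitted in limma 3.58.1 (R 4.3.3) by group alone. The script was tested on simulated data, in which 200 probe sets had been changed. The 2-fold and unadjusted p thresholds follow the study's methods, which state no adjustment.

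Names came from the platform annotation and the ASM3414082v1 gene table, which also gave gene order. Each gene was read by its brightest probe set, by mean log2 value. Of the 59 members, 9 had several probe sets and 4 were read by a type of probe set that can match other genes. The members and lists were chosen with earlier results of these data known. Named genes were to be every called member, in each group the 3 largest differences in each direction among non-overlapping genes above the median level, and members with a known role. Any other member that the text names was picked with its values in view. The alternatives comprised median centring, quantile normalization, an added offset of 16 with no floor, leaving out dim probe sets, trend and robust moderation, the replicate number as a block, a fold threshold of 1.5, other choices of the probe set of a gene, and leaving out each array. The number of arrays limits the precision. Protein and DNA sequences were not used here.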

Additional observations from a re-analysis of the deposited data

How the results depend on the processing

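The main fit called 274 probe sets and 0 members. A fold threshold of 1.5 called 573 probe sets and 1 member, *EXLA1*. Median centring and quantile normalization each called 1 member, *EXLA4*, with 388 and 282 probe sets, and the other settings over all 4 arrays called 0 members. Benjamini-Hochberg adjusted p-values in limma were under 0.05 for 35 probe sets with median centring and 18 with dim probe sets left out. Leaving out an array gave between 194 and 772 probe sets and between 0 and 5 members. Such a fit sets arrays of different brightness against each other, and the part of brightness in these counts was not tested. With median centring added, chosen after seeing the data, 6 members were called without the −N array of replicate 1 (*CESA4*, *CESA7*, *XTH8*, *EXLA4*, *EXPA8* and *EXPB18*), 1 without that of replicate 2 (*EXPB18*), and 1 (*EXLA4*) and 0 without the +N arrays. Each of these centred fits left a lone array in a group, and the share of all genes it called is not given here. Whether the members were called more often than other genes in these fits was therefore not tested, and no result was drawn from the counts. The median log2 fold change without an array lay between -0.33 and 0.30 for the expansins, -0.69 and 0.38 for the *CESA* and *CSL* genes, -1.45 and 0.83 for *XTH8* and -0.46 and 0.41 for the other cell wall genes. All group medians moved by less than the spread between replicates under the settings that kept all 4 arrays. Of 32 genes followed singly, 1 changed sign with quantile normalization, 1 with the offset, 0 with median centring, and 21 without the −N array of replicate 2.

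The replicate numbers are not said to mark a shared batch. Deviations of same-numbered arrays from their group means correlated at 0.56 over probe sets. With the replicate number as a block, 309 probe sets and 0 members were called, and the group medians were the same (-0.05 for the expansins, -0.16 for *CESA* and *CSL*). Of the 32 genes followed singly, unadjusted p in limma was under 0.05 with the block for *EXLA1* (0.00673), *CSLA7* (0.0191, against 0.321 without it), *EXPB8* (0.0204, against 0.575) and *EXLA4* (0.0416, against 0.0833), with log2 fold changes of 0.75, -0.51, -0.51 and 1.00, the last just under a 2-fold change, so that none was called. The share of all genes under that p with the block is not given here. Some of the 32 genes were picked with their values in view, so no result about the members was drawn from these p-values. With 2 arrays per group, small changes are not detectable.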
